A study of Mus musculus with 3 samples.

Results

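Ier2, Ier3, Ier5, Btg1, Btg2, Gadd45a, Gadd45b, Gadd45g and Ppp1r15a are small genes of the early stress and growth-arrest response. These 9 genes were chosen by symbol and were all found among the 55536 annotated genes, 22028 of them protein-coding, of the deposited tables. They were measured by total RNA-seq of the RNA bound to chromatin in macrophages grown from the bone marrow of C57BL/6J mice. The cells had received 100 ng/ml Lipid A for 12 h, a washout of 12 h and a second exposure to 100 ng/ml Lipid A for 40 min. Lipid A, the membrane anchor of bacterial lipopolysaccharide, is sensed by Toll-like receptor 4. There were 3 libraries of this 1 group, numbered in the labels as biological replicates, made from 1 µg, 250 ng and 500 ng of RNA in replicates 1, 2 and 3. All 3 carry the same strain-level donor label, and the sex and age of the mice were not collected. The labels do not say whether they came from separate cultures or animals, so the spread given here is that between these libraries and may be technical. No untreated or earlier sample was analysed here, so the values below are levels after this treatment and not a response to it.

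Immediate-early genes are transcribed within minutes of a stimulus without new protein synthesis, and their transcripts are usually short and unstable. The BTG proteins slow proliferation and bring the CCR4-NOT deadenylase to messenger RNAs, which shortens poly(A) tails. The GADD45 proteins bind MAP3K4, PCNA and the CDK1-cyclin B complex and link stress to p38 and JNK signalling and to growth arrest, and Ppp1r15a encodes GADD34, the stress-induced subunit that directs protein phosphatase 1 to dephosphorylate eIF2 alpha and so lets translation resume.

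The 3 libraries held 13802716, 17187524 and 16502809 expected counts in annotated genes, where 3 counts, the most that a listed 0 leaves possible, equal 0.175 to 0.217 CPM, a count relative to the depth of its library. This limit and the intervals given for counts reflect counting error only, since the reads carry no molecular identifiers. All 8 macrophage markers looked at (Adgre1, Csf1r, Cd68, Lyz2, Itgam, Mertk, Fcgr1 and Cd14) were in the top 10% of protein-coding genes, and their TPM, a level per transcript length scaled to the same total in each library, summed to 1080, 1195 and 1113 in replicates 1, 2 and 3. None of 5 neutrophil, 4 T cell, 3 B cell and 2 natural killer cell markers reached a mean of 10 counts, and each of these lists summed to below 1 TPM in every library, with Ly6g, Cd3e, Cd3g, Ncr1 and Klrb1c at 0. Of 3 fibroblast markers, 2 passed that minimum, with the list summing to 0, 0.63 and 1.24 TPM in replicates 1, 2 and 3, and Pdgfra was at 0.

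The loci were short. In GENCODE M21 on mm10 the 9 genes spanned 1240 to 5804 bases, with a median of 2362, against a median of 24722 bases for the 10952 protein-coding genes called detected, those averaging 10 counts or more. Only 11.8% of those genes were as short as the longest of the 9. Ier2 (chr8:84661331-84662852, minus strand) and Ier5 (chr1:155096361-155099636, minus strand) have 1 exon each, as do 1.97% of the detected protein-coding genes. Ier3 (chr17:35821684-35822923, plus strand), Btg1 (chr10:96617006-96622809, plus strand) and Btg2 (chr1:134075170-134079120, minus strand) have 2 exons. Ppp1r15a (chr7:45522916-45526268, minus strand) has at most 3 exons in a transcript. Gadd45a (chr6:67035096-67037457, minus strand), Gadd45b (chr10:80930073-80932204, plus strand) and Gadd45g (chr13:51846678-51848468, plus strand) have 4 exons each. The 9 genes lie on 7 chromosomes, where Btg2 and Ier5 are 21.02 Mb apart on chromosome 1 and Gadd45b and Btg1 are 15.7 Mb apart on chromosome 10.

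Promoter sequences from RefSeq (GRCm38.p6) were matched for 8 of the 9 genes, all but Ier2. The 250 bases upstream of the RefSeq start, 5′ to 3′ on the gene's strand, are shown for 6 of them. Ppp1r15a and Btg2 carry a full cyclic AMP response element (CRE), Btg1 carries its core, and the Gadd45 genes are shown to compare the members of a family whose levels differed widely. Capitals mark matches on either strand to the TATA box (TATAAA or TATAAG), the CCAAT box (CCAAT), the GC box (GGGCGG), the CRE (TGACGTCA) or its core (TGACGT), the E-box (CACGTG) and the kappaB site.
Ppp1r15a: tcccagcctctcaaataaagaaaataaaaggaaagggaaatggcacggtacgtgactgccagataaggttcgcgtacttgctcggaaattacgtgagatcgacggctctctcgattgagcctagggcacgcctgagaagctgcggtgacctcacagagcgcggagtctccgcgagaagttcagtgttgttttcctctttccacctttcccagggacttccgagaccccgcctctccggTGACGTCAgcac
Btg2: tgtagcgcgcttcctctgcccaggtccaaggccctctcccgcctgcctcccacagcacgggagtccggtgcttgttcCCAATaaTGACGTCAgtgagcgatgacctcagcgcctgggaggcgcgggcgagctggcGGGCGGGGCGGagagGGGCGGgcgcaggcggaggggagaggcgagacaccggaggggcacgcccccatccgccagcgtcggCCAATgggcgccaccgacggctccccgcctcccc
Btg1: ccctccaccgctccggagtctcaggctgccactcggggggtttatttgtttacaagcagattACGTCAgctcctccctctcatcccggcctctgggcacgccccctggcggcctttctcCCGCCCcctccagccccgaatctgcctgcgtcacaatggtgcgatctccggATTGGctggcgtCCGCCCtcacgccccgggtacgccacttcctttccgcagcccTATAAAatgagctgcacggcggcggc
Gadd45b: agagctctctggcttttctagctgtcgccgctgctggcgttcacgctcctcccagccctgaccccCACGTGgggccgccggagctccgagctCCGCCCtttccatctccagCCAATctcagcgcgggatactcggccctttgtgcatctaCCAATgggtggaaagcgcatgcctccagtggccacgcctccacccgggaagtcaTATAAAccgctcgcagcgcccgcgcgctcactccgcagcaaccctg
Gadd45g: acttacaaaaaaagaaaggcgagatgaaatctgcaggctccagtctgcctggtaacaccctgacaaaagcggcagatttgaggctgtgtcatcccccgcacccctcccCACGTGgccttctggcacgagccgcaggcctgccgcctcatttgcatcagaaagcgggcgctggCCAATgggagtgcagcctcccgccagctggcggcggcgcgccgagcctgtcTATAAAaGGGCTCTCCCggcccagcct
Gadd45a: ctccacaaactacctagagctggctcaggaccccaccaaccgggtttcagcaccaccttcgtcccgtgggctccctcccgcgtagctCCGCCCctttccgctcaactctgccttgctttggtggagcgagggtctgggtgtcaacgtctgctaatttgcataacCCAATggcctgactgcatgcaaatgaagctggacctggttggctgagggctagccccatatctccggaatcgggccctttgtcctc
The windows are chr7:45526269-45526518 (minus) for Ppp1r15a, chr1:134079156-134079405 (minus) for Btg2, chr10:96616751-96617000 (plus) for Btg1, chr10:80929841-80930090 (plus) for Gadd45b, chr13:51846425-51846674 (plus) for Gadd45g and chr6:67037408-67037657 (minus) for Gadd45a.

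The CRE lay 12 to 5 bases before the RefSeq start in Ppp1r15a and 166 to 159 bases before it in Btg2, and 2.08% of the 16522 protein-coding promoters of the same length held one. The core alone, which also lies within every full CRE, was found in Btg1, 188 to 183 bases upstream on the opposite strand, and the core was present in 7.75% of all promoters. A TATA box was present in 5 of the 8 promoters (Ier3, Ier5, Btg1, Gadd45b and Gadd45g), against 15.98% of all. Measured from the RefSeq start, as for the other motifs, its first base lay 58 bases upstream in Ier3, 46 in Gadd45b, 27 in Gadd45g and 26 in Ier5 and Btg1. Measured from the start of the first-numbered GENCODE transcript, which differs by up to 29 bases, its first base lay 26 to 31 bases upstream in all 5. The share of all promoters with a TATA box at that position was not computed. A CCAAT box was present in 7 of 8, all but Ppp1r15a, against 36.0% of all promoters, and a GC box in 6 of 8, all but Gadd45g and Ppp1r15a, against 44.3%. An E-box was present in Gadd45b and Gadd45g (6.80% of all) and a kappaB site in Ier3 and Gadd45g (15.0% of all), where the site of Ier3 overlaps its GC box. Neither the AP-1 site (TGACTCA or TGAGTCA, 3.98% of all) nor the CArG box (1.38% of all) was found in these 8 windows. The 8 windows had a median GC content of 61.0% (54.4% to 73.2%), against 56.0% for all promoters, and a median observed-over-expected CpG ratio of 0.760, against 0.558. Ppp1r15a had both the highest CpG ratio, 1.03, and, with Ier3, the lowest GC content. These matches describe letters in a window and were not tested for binding. The motifs were chosen with these sequences in view, so the shares over all promoters beside them do not measure enrichment.

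All 9 genes were detected in all 3 libraries, with means of 26.3 to 3938 expected counts, and 49.7% of protein-coding genes reached the minimum of 10 counts used here. By mean log2(TPM + 1), 6 of the 9 stood in the top 10% of protein-coding genes, and 3 of the 9 did so with the estimates made directly from the reads. The median percentile of the 9 was 93.0 and their median level 44.1 TPM, against 0.44 TPM for all protein-coding genes and 7.32 TPM for the detected ones. Gadd45b and Ppp1r15a were at the top of the group and Gadd45g at the bottom. In bulk RNA of this kind, fewer cells expressing a gene and less RNA per cell cannot be told apart.

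**Figure D1:**
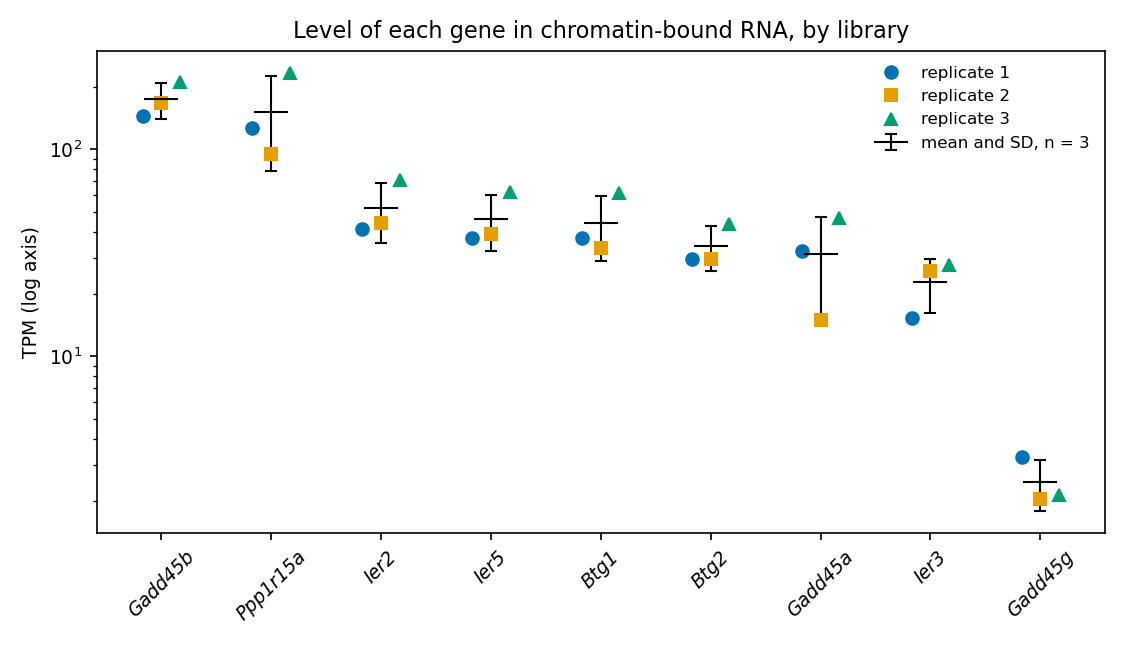
Level of each of the 9 genes in chromatin-bound RNA (TPM, log axis), one point per library, with the mean and SD of the 3 libraries. Gadd45b and Ppp1r15a sit at 94.7 TPM or above in every library, the 6 genes in the middle lie between 15.0 and 71.3 TPM, and Gadd45g lies between 2.04 and 3.27 TPM.

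Ier2, which encodes a nuclear immediate-early protein, had 41.1, 43.9 and 71.3 TPM in replicates 1, 2 and 3 (52.1 ± 16.7, SD, n = 3). Ier5, whose product in human cells brings protein phosphatase 2A to the heat shock factor HSF1, had 37.2, 38.9 and 62.1 TPM in the same order (46.05 ± 13.9). Both were highest in replicate 3, and the ratio of Ier2 over Ier5 varied little, at 1.11, 1.13 and 1.15. Ier3, a regulator of apoptosis and of ERK signalling, had 15.3, 25.9 and 27.6 TPM (22.9 ± 6.69), with the low value in replicate 1. In CPM the values of Ier3 were closer, at 14.3, 18.7 and 19.6. All protein-coding genes together held 27.4%, 30.7% and 31.9% of the TPM in replicates 1, 2 and 3, which enters every TPM comparison between libraries. Of the summed TPM of the 3 IER genes, Ier2 made up 42.9% ± 2.15, Ier5 38.0% ± 2.02 and Ier3 19.1% ± 4.11 (SD, n = 3). Ier3 was the lowest of the 3 in every library, with Ier2 over Ier3 between 1.69 and 2.69.

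Btg1, an antiproliferative partner of the deadenylase subunits Cnot7 and Cnot8, had 37.3, 33.5 and 61.5 TPM in replicates 1, 2 and 3 (44.1 ± 15.2, SD, n = 3). Btg2, a target of p53, had 29.4, 29.4 and 43.7 TPM (34.2 ± 8.26). Btg1 exceeded Btg2 in each library, by ratios of 1.27, 1.14 and 1.41, although the ranges of both genes overlap across libraries. Btg1 made up 55.9% ± 2.60 of the summed TPM of the pair.

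Gadd45b, an NF-kB target that restrains JNK signalling, was the highest of the 9 by mean TPM, with 145, 167 and 211 TPM in replicates 1, 2 and 3 (174.5 ± 33.7, SD, n = 3; 1659, 1767 and 2264 counts). Gadd45a, the p53-responsive member, had 32.4, 15.0 and 46.6 TPM (31.3 ± 15.8), from 382, 144 and 449 counts. Its low value in replicate 2 stood outside the counting intervals of the other libraries. The exact Poisson 95% interval, scaled by the library total, was 7.07 to 9.86 CPM there, against 24.97 to 30.6 CPM in replicate 1 and 24.7 to 29.8 CPM in replicate 3. Gadd45g, the third family member, had 3.27, 2.04 and 2.13 TPM (2.48 ± 0.686), from 37, 21 and 21 counts. The same intervals were 1.89 to 3.69, 0.756 to 1.87 and 0.788 to 1.95 CPM, so that of replicate 1 overlapped that of replicate 3 and lay just above that of replicate 2. Gadd45b held 80.3%, 90.7% and 81.3% of the summed TPM of the 3 GADD45 genes. Its ratio over Gadd45a was 4.49, 11.1 and 4.54, so that replicate 2 stood apart. The ratio of Gadd45b over Gadd45g was 44.4, 81.9 and 99.2.

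Ppp1r15a had 126, 94.7 and 235 TPM in replicates 1, 2 and 3 (151.9 ± 73.4, SD, n = 3), from 3823, 2447 and 5545 counts, the most of the 9 genes in every library. Replicate 3 was the highest and replicate 2 the lowest. The estimates made directly from the reads gave a mean of 100.5 TPM for Ppp1r15a and 191.7 TPM for Gadd45b, so the gap between the top 2 genes depended on the quantification. Gadd45b was above Ppp1r15a in 2 of 3 libraries in the gene tables.

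Of the 8 pairs of neighbours in the order Gadd45b, Ppp1r15a, Ier2, Ier5, Btg1, Btg2, Gadd45a, Ier3 and Gadd45g, 4 kept their order in all 3 libraries, namely Ppp1r15a over Ier2, Ier2 over Ier5, Btg1 over Btg2 and Ier3 over Gadd45g. The ranges of TPM did not overlap for Ppp1r15a over Ier2, whose means differed 2.92-fold, and for Ier3 over Gadd45g, whose means differed 9.25-fold. The TPM ranges of the other 6 neighbouring pairs overlapped across libraries. Within libraries, Ier2 exceeded Ier5 by 0.15, 0.17 and 0.20 on the log2 TPM scale in replicates 1, 2 and 3 (0.17 ± 0.03, SD, n = 3), and Btg1 exceeded Btg2 by 0.34, 0.19 and 0.49 (0.34 ± 0.15). The order of the remaining 4 pairs changed between libraries, and their mean difference was smaller than its SD. The order also changed with the quantification. By the mean of the reads-based estimates, Btg1 (42.7 TPM) ranked 3, above Ier2 (38.9 TPM) and Ier5 (33.9 TPM). Gadd45a (29.5 TPM) ranked 6, above Btg2 (25.6 TPM). No pair was tested, and an exact sign-flip test over 3 libraries cannot give a two-sided p below 0.25.

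The 9 genes varied more between libraries than most genes. Their biological coefficient of variation (BCV), the spread beyond counting noise in edgeR, had a median of 0.297, against 0.135 for the 10952 detected protein-coding genes and 0.123 for the 7003 that averaged 100 counts or more. All 9 exceeded both medians, from 0.172 in Ier3 to 0.646 in Gadd45a. After scaling by the trimmed mean of M values (TMM), the highest library was at least 1.5 times the lowest in 8 of 9 genes, against 36.9% of detected protein-coding genes and 23.6% of those averaging 100 counts or more. The ratio was 3.71 in Gadd45a, 2.70 in Ppp1r15a, 2.34 in Gadd45g and 2.07 in Btg1. It was 1.53 to 1.82 in Ier2, Ier5, Btg2 and Gadd45b, and 1.45 in Ier3. Scaled to the total count alone, without TMM, the ratio was 1.45 in Btg2, 1.37 in Ier3 and 1.33 in Gadd45b. The BCV of Gadd45b was then 0.142, below the median of 0.151 over all detected protein-coding genes, and that of Ier3 was 0.152. With no filter on low counts, the BCV of Ier3 (0.168) was just below the median of 0.169. These estimates rest on 3 libraries and shift when 1 is left out. Without replicate 2 the BCV was 0.0099, the lowest value the fit returned, in Gadd45a, 0.174 in Ppp1r15a (0.480 with all 3), 0.230 in Btg1 (0.356), 0.145 in Btg2 (0.2496) and 0.130 in Gadd45b (0.209), while the median of all detected genes was 0.0638. Without replicate 3 it was 0.178 in Ier2 (0.297 with all 3), 0.174 in Ier5 (0.287) and 0.112 in Ier3 (0.172), against a median of 0.117 over all detected genes. Without replicate 1 it was 0.112 in Ier3 and 0.0099 in Gadd45g (0.421 with all 3), against a median of 0.120. So Ier3 fell below the median of all detected genes without replicate 1 or 3, Gadd45g without replicate 1 and Gadd45a without replicate 2. With the estimates made from the reads the BCV of Ier3 was 0.0235.

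The libraries differed in the same order for most of the 9 genes. Measured as log2 CPM (TMM) minus the mean of the 3 libraries, the medians of the 9 were 0.03, -0.41 and 0.44 in replicates 1, 2 and 3, against -0.00, 0.02 and -0.01 for all detected protein-coding genes. Replicate 3 was the highest for 8 of 9 genes, all but Gadd45g, and 30.0% of detected protein-coding genes were highest there (31.9% of those averaging 100 counts or more). Replicate 2 was the lowest for 8 of 9, all but Ier3, and 36.0% of detected protein-coding genes were lowest there (43.4% of those averaging 100 counts or more). Both held for 7 of the 9, against 18.2% of detected protein-coding genes and 21.5% of the deeper ones. None of the 9 was highest in replicate 2, as 40.9% of detected genes were, and none was lowest in replicate 3, as 33.3% were. In replicate 2, Gadd45a (-1.24), Ppp1r15a (-0.84) and Btg1 (-0.54) lay below the 5th percentile of all detected genes, which was -0.53. In replicate 3, Gadd45a (0.65), Ppp1r15a (0.60), Btg1 (0.51) and Ier2 (0.45) lay above the 95th percentile, which was 0.44. In replicate 1, Gadd45a (0.59) and Gadd45g (0.74) lay above the 95th percentile of 0.38, so Gadd45a was nearly as high there as in replicate 3. Gadd45g, with the fewest counts, was highest in replicate 1 at 0.74, as were 29.1% of detected genes, and Ier3 was lowest there at -0.27, as were 30.6%.

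**Figure D2:**
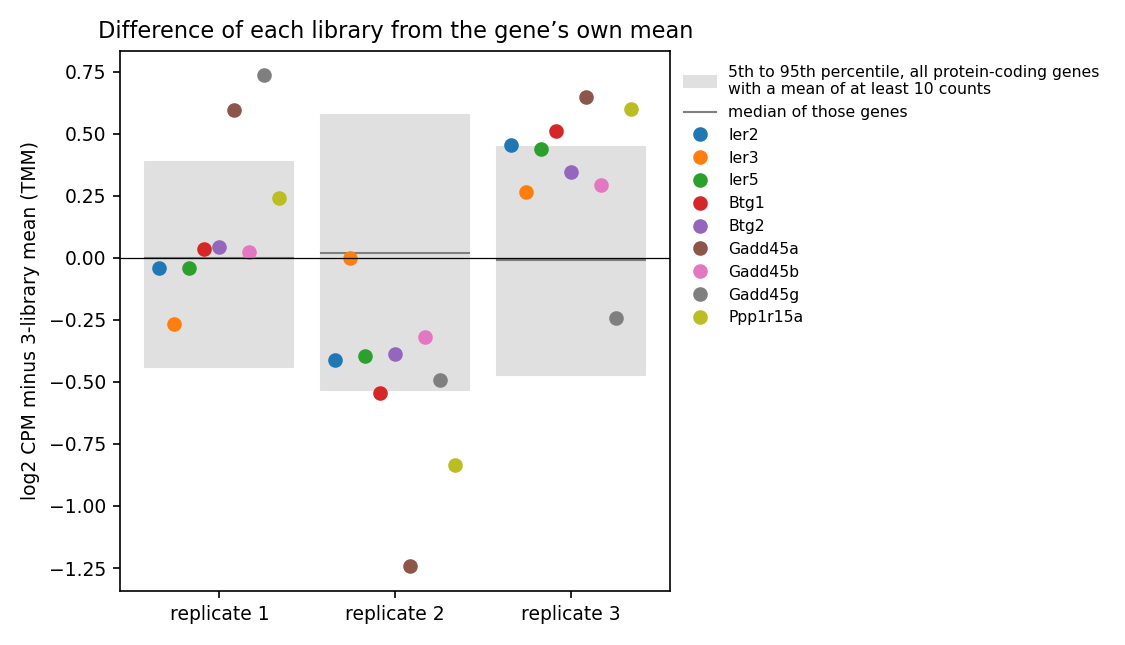
Difference of each library from the gene's own mean (log2 CPM after TMM scaling) for the 9 genes, one colour per gene, with the 5th to 95th percentile of all detected protein-coding genes in grey and their median as a line. None of the 9 points in replicate 2 lies above 0, and 8 of the 9 points in replicate 3 do.

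The order of the libraries depended in part on the scaling. With DESeq2 size factors the counts of genes were the same, 8 highest in replicate 3 and 8 lowest in replicate 2. With scaling to the total count alone they were 7 (all but Gadd45a and Gadd45g) and 8, against 18.2% and 22.8% of detected genes, and the medians of all detected genes were then -0.01, 0.12 and -0.10 in replicates 1, 2 and 3. On the TPM scale 8 of 9 were highest in replicate 3, against 29.8%, but only 4 (Btg1, Gadd45a, Gadd45g and Ppp1r15a) were lowest in replicate 2, against 14.1%. The medians of all detected genes on that scale were -0.18, 0.17 and 0.01, and relative to these medians 8 of the 9 genes were lowest in replicate 2, against 37.6% of detected genes. Btg2 had the same TPM in replicates 1 and 2. Replicate 2 was made from the least RNA, 250 ng, and held the most counts. The 8 macrophage markers had median deviations of 0.17, -0.05 and -0.07 in replicates 1, 2 and 3. The part of RNA input and depth in the order of the libraries was not tested.

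The protein-coding genes whose 3 log2 CPM deviations came nearest to the mean of the 9 genes (0.15, -0.51 and 0.37) were Prr14, Ctnnb1, Ddit3, Rnf19b and Ppp1r10, among 6995 other genes averaging 100 counts or more. Their Euclidean distances to that mean were 0.0086 for Prr14, 0.019 for Ctnnb1, 0.021 for Ddit3, 0.022 for Rnf19b and 0.027 for Ppp1r10. In all, 71 genes lay within 0.1 of that mean, so with 3 libraries many genes came near it. The mean need not describe a single gene of the 9. Btg2, at 0.04, -0.39 and 0.35, and Gadd45a, at 0.59, -1.24 and 0.65, both lay more than 0.1 from it.

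Of the 9 genes, 4 (Ier2, Ier3, Ier5 and Btg2) have 1 annotated transcript each. The other 5 split their TPM between annotated forms that differ in how much intron they hold. Reads from intron bases can count only towards annotated transcripts that hold those bases. In RNA bound to chromatin, the shares below cannot tell such forms apart from transcripts not yet spliced. Ier3 and Btg2 have 1 intron each but no annotated transcript that holds it. Transcripts annotated as retained intron exist for the 3 GADD45 genes alone, while 41.4% of protein-coding genes have one. In Gadd45a these forms held 39.9%, 58.0% and 54.3% of the gene's TPM in replicates 1, 2 and 3 (50.7% ± 9.59, SD, n = 3). In Gadd45b they held 25.5%, 23.6% and 19.8% (23.0% ± 2.89) and in Gadd45g 28.4%, 40.9% and 38.0% (35.8% ± 6.57). The median over the 6285 protein-coding genes with both kinds of transcript was 41.8%, so Gadd45b and Gadd45g were below it in every library and Gadd45a above it in 2 of 3. Gadd45b ranked at percentile 20.7 of those genes, Gadd45g at 39.9 and Gadd45a at 64.6. The estimates made from the reads gave Gadd45b 37.0%, 35.2% and 32.3% (34.8% ± 2.41, percentile 37.6), Gadd45g 39.8% ± 6.80 (percentile 45.5) and Gadd45a 45.8%, 65.7% and 63.4% (58.3% ± 10.9, percentile 72.2). On that scale the median was 42.9%, and Gadd45a was above it in all 3 libraries. In replicate 2 the Gadd45a share rests on few counts, at 40.7, 11.1 and 5.51 for Gadd45a-202, Gadd45a-203 and Gadd45a-205. The opposite-strand gene E230016M11Rik overlaps Gadd45a over 859 bases and had 102 counts in replicate 2. Its part in these shares was not tested.

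**Figure D3:**
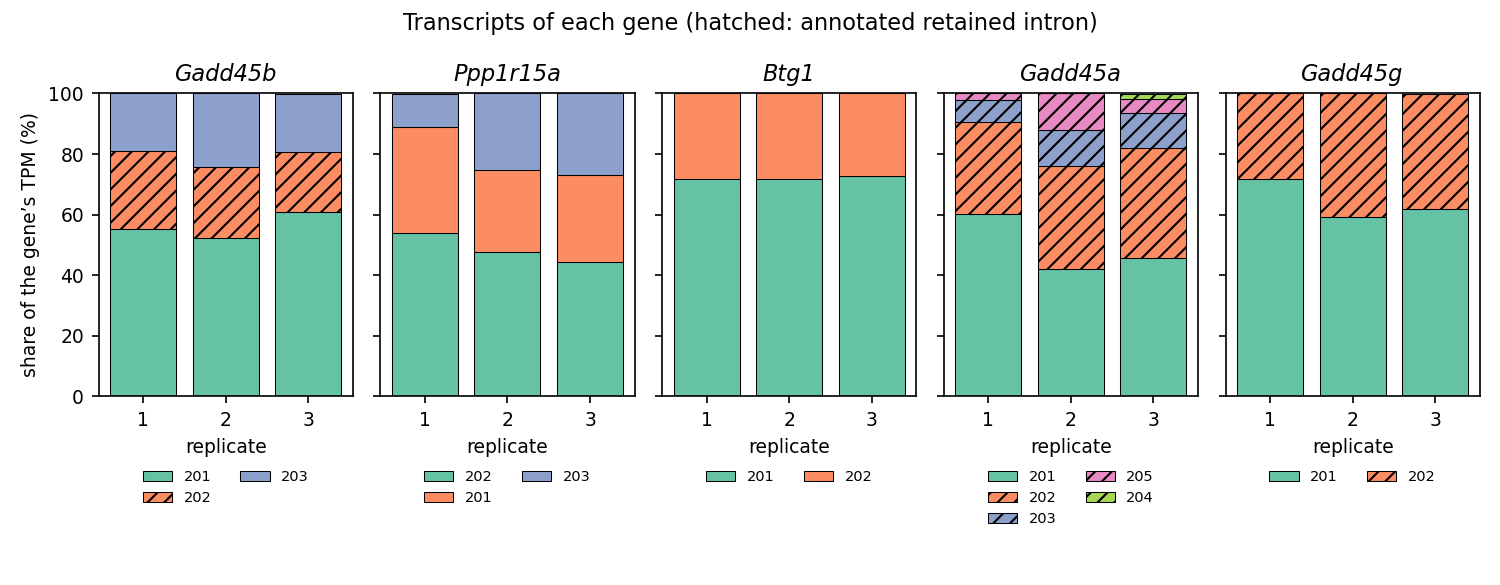
Share of each gene's TPM in its annotated transcripts (percent), one bar per library, for the 5 genes with more than 1 transcript; hatching marks transcripts annotated as retained intron. The share of Gadd45a-201 is highest in replicate 1 at 60.1%, and the share of Btg1-202 stays between 27.4% and 28.4%.

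In Gadd45b, the spliced transcript Gadd45b-201 held 56.1% ± 4.44 of the TPM, Gadd45b-202, annotated as retained intron, 23.0% ± 2.89 and Gadd45b-203 20.9% ± 2.94. Gadd45b-202 carries 217 of the 848 intron bases of Gadd45b-201 and no whole intron. Gadd45b-203 is annotated as protein-coding, yet its first exon carries the whole 88-base first intron of Gadd45b-201. In Gadd45a, Gadd45a-201 held 60.1%, 42.03% and 45.7% in replicates 1, 2 and 3 (49.3% ± 9.59), Gadd45a-202 33.6% ± 2.97 and Gadd45a-203 10.3% ± 2.54. Both of the smaller forms are annotated as retained intron, but only Gadd45a-203 carries a whole intron of Gadd45a-201, while Gadd45a-202 carries 307 of its 1088 intron bases. Gadd45a-206 and Gadd45a-207 were listed at 0 in all 3 libraries. In Gadd45g, Gadd45g-201 held 64.2% ± 6.57, and Gadd45g-202, which keeps a 102-base intron, held the rest. This split rests on 21 to 37 counts per library.

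In Ppp1r15a the leading form was Ppp1r15a-202, whose exon carries the whole 603-base first intron of Ppp1r15a-201. It held 53.9%, 47.8% and 44.5% of the TPM in replicates 1, 2 and 3 (48.7% ± 4.81, SD, n = 3), against 30.1% ± 4.20 for Ppp1r15a-201. The short Ppp1r15a-203, at the 3′ end of the gene, held 11.2%, 25.4% and 27.0%, and the estimates from the reads gave it a mean of 8.77%. Its share rests on 37.7, 46.7 and 123 expected counts and on a length of 389 bases. In Btg1, Btg1-201 held 72.02% ± 0.53 and Btg1-202 the other 28.0%, and 275 bases of the first exon of Btg1-202 lie in the intron of Btg1-201. The share of Btg1-202 rests on 68.3, 54.8 and 93.3 expected counts in replicates 1, 2 and 3. The reads-based estimates gave Btg1-202 38.8%, 48.8% and 43.1% (43.6% ± 5.04), a larger share and a wider spread. Counting every transcript that carries any intron base of the first-numbered one (Btg1-201, Gadd45g-201 and so on), the share was 28.0% ± 0.53 in Btg1, 35.8% ± 6.57 in Gadd45g, 43.9% ± 4.44 in Gadd45b, 48.7% ± 4.81 in Ppp1r15a and 50.7% ± 9.59 in Gadd45a. The reads-based estimates of that share were higher in all 5, at 43.6%, 39.8%, 60.1%, 56.8% and 58.3% in the same order.

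**Figure D4:**
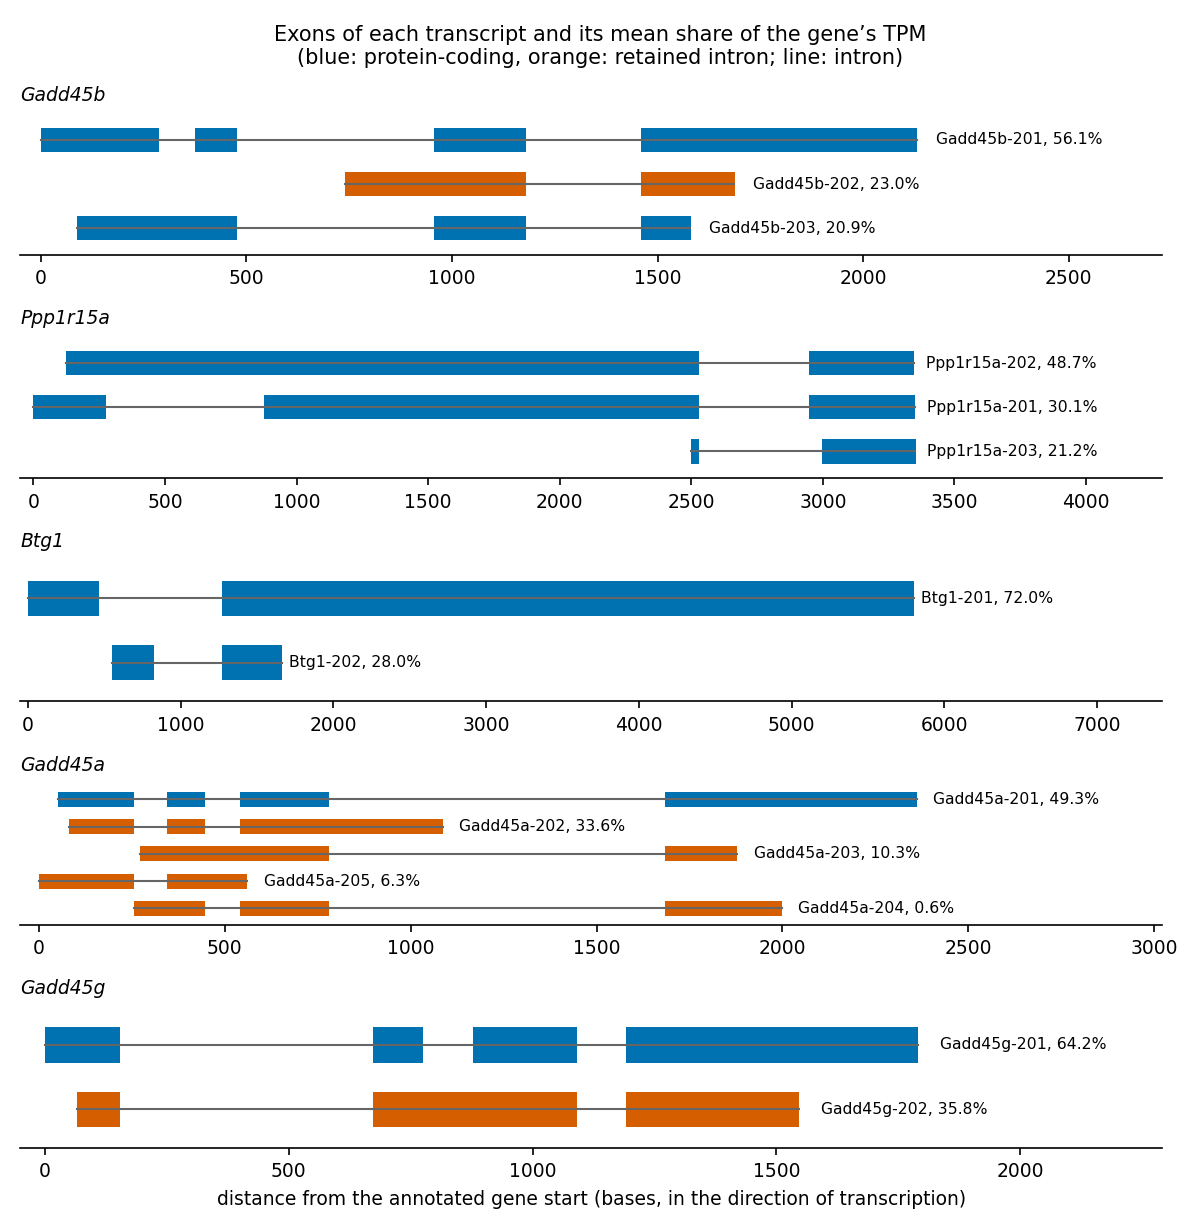
Exons (boxes) and introns (lines) of the transcripts of the 5 genes that were above 0, drawn against the distance from the annotated gene start in bases, with each transcript's mean share of the gene's TPM. Blue transcripts are annotated as protein-coding and orange ones as retained intron, and the first exon of Ppp1r15a-202 runs across the 603-base intron of Ppp1r15a-201.

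Some of these loci overlap another gene or share sequence with one. Gadd45a overlaps the opposite-strand gene E230016M11Rik over 859 bases, and 17.6% of the 25-base words of its transcripts occur in another gene on either strand. Whether the counting used strand is not given in the sources used here, so reads from Gadd45a and E230016M11Rik may be split between them. E230016M11Rik had 64.0, 102 and 113 counts in replicates 1, 2 and 3, beside the 382, 144 and 449 of Gadd45a. Any split of reads between them was not tested. Ppp1r15a overlaps the 3′ end of Tulp2, on the opposite strand, over 717 bases, but their transcripts share no 25-base word. Tulp2 had 84.6, 68.1 and 139 counts. Btg1 shares 5.48% of its words with other genes, mostly the copies Gm14519, Btg1-ps1 and Btg1-ps2, which had no counts. Ier2, Ier3, Gadd45b and Gadd45g shared no word with another gene, while Ier5 shared 0.308%, Btg2 0.257% and Ppp1r15a 0.112%. Counts estimated from the reads were 1.15 to 1.62 times those of the alignment in the 9 genes (means over libraries), below the median ratio of 1.67 over all detected protein-coding genes in each of the 9.

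The genes that work with the 9 were detected in most cases, beside 49.7% of all protein-coding genes. As lists they stood lower than the 9 by TPM of the gene tables, and they were not ranked with the reads-based estimates. Of 16 genes of the integrated stress response, the pathway that Ppp1r15a switches off, all 16 were detected and 5 were in the top 10% of protein-coding genes, with a median percentile of 78.1. The highest were the kinase gene Eif2ak2 at 218 ± 9.05 TPM and the transcription factor genes Ddit3 at 74.8 ± 19.7 TPM and Atf3 at 63.0 ± 16.2 TPM (SD, n = 3). Replicate 3 was the highest library for 8 of these 16, against 30.0% of detected protein-coding genes, and their median deviations in log2 CPM were 0.07, -0.31 and 0.20 in replicates 1, 2 and 3. Of 16 genes of the p53 pathway, 15 were detected and 5 were in the top 10%, with a median percentile of 77.8. Mdm2, the ubiquitin ligase for p53, led at 444 ± 122 TPM, followed by the kinase gene Plk2 at 244 ± 112 TPM and Mdm4 at 215 ± 13.5 TPM, and Phlda3 was under 10 counts. Replicate 3 was the highest for 6 of the 15, again beside 30.0% of detected genes, with median deviations of -0.09, 0.12 and 0.06. In the other 4 lists it was the highest for 6 of 18 detected BTG and TOB relatives and deadenylase genes, 3 of 9 GADD45 partners, 6 of 9 IER relatives and partners and 1 of 10 genes for protein phosphatase 1, eIF2, eIF2B and actin. The last of these lists ran the other way from the 9 genes, with median deviations of 0.00, 0.17 and -0.19.

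**Figure D5:**
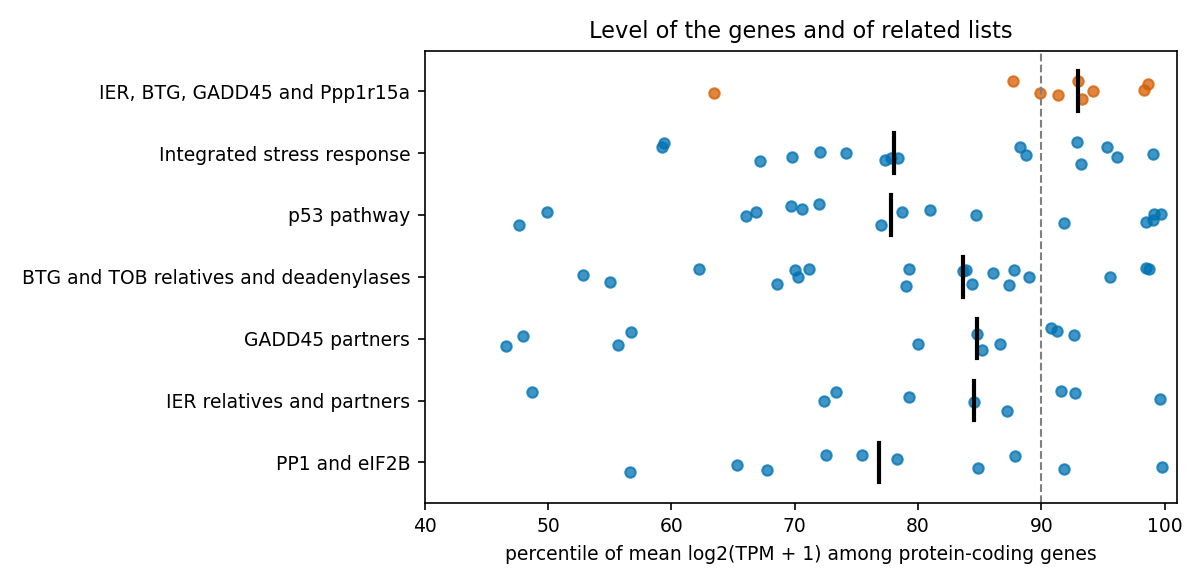
Percentile of mean log2(TPM + 1) among protein-coding genes for the 9 genes (orange) and for 6 lists of related genes (blue), one point per gene, with a black bar at the median of each list and a dashed line at percentile 90. The median of the 9 is 93.0, and those of the other lists lie between 76.8 and 84.8.

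Of 19 BTG and TOB relatives and deadenylase genes, 18 were detected, all but Btg4, and 3 were in the top 10%. Pan3, a subunit of a poly(A) nuclease, had 175 ± 3.54 TPM, the poly(A)-binding protein gene Pabpc1 159 ± 23.4 TPM and Cnot1, the scaffold of the CCR4-NOT complex, 64.9 ± 7.92 TPM. Of 11 genes for partners of the GADD45 proteins, 9 were detected and 3 were in the top 10%, while Ccnb1, a cyclin gene, was among those under 10 counts. The p38 kinase gene Mapk14 had 41.0 ± 9.70 TPM, the JNK gene Mapk9 33.7 ± 4.53 TPM and the DNA glycosylase gene Tdg 31.6 ± 1.58 TPM, each below Gadd45b in every library. All 9 relatives and partners of the IER genes were detected and 3 were in the top 10%, led by Mcl1, an inhibitor of apoptosis, at 377 ± 93.1 TPM. The phosphatase gene Ppp2ca had 35.0 ± 2.91 TPM. All 10 genes for protein phosphatase 1, eIF2, eIF2B and actin were detected and 2 were in the top 10%. Actb had 519 ± 40.1 TPM, the eIF2 subunit gene Eif2s2 36.4 ± 7.61 TPM and the catalytic subunit gene Ppp1cc 23.2 ± 6.75 TPM, so Ppp1r15a was above Eif2s2 and Ppp1cc.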

How the data were processed

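Chromatin-bound total RNA of 3 libraries of 1 group was measured. The authors deposited, per library, gene and transcript tables of expected counts and TPM made by aligning to transcripts of GENCODE M21 (mm10), and a transcript table of estimated counts and TPM made from the reads. The file headers follow the column layouts of RSEM and kallisto, but no program is named and the aligner is not given in the sources used here. In the transcript tables, the deposited percent is a transcript's part of its gene's TPM, and the deposited score of each count's posterior SD was at most 2.09 counts for the 9 genes.

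Entries that name no annotated gene (1.13%, 0.324% and 0.279% of counts) were left out of library totals. Levels were ranked by mean log2(TPM + 1) among protein-coding genes, and a gene averaging 10 counts or more was called detected. Expected counts were rounded for edgeR 4.0.16 (R 4.3.3), with TMM factors, a design with an intercept only and prior degrees of freedom of 0, so that no gene's spread was drawn towards the others, and log2 CPM used a prior count of 0.5. The spread estimate was tested on simulated data, where it came out somewhat below the simulated spread. Shared 25-base words, intron bases and motif matches were computed with Python 3.11.15, pandas 2.3.3 and numpy 2.4.6, and matplotlib 3.10.9 drew the plots. Retained-intron shares were compared among genes averaging 1 TPM or more.

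The 9 genes and the related lists were chosen with earlier results of these data known, the motifs with the promoter sequences in view, and the count of transcripts carrying intron bases and the library order under other scalings after seeing the data. The text names the 9 genes, their transcripts with at least 10% of TPM, the 3 highest and up to 2 undetected genes of each related list, and the 5 genes nearest in pattern, except that some genes of the related lists are not reported here. The 1 group allows no contrast, so no p-value is given. The alternatives were DESeq2 1.42.0 size factors, total count scaling, the reads-based estimates, CPM, pseudocounts, filters, TPM rescaled over protein-coding genes and leaving out each replicate.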

Additional observations from a re-analysis of the deposited data

How the results depend on the processing

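No paired analysis was possible because there is 1 group. With the estimates made from the reads, the median percentile of the 9 genes was 88.1 (93.0 in the gene tables), 3 of them (6) were in the top 10%, and the median share in transcripts carrying intron bases was 56.8% (43.9%). Ranked among genes averaging 10 counts or more, the median percentile was 85.9 and 2 genes were in the top 10%. On the TPM scale 4 genes, in place of 8, were lowest in replicate 2. The cause was not tested for the reads-based values, while the stricter ranking leaves out the low genes. Leaving out each replicate in turn gave a median percentile of 91.8 to 94.0, 6 to 7 genes in the top 10%, a median BCV of 0.207 to 0.390 (0.297 with all 3), a median share of the leading transcript of 53.7% to 58.1% (56.1%), a median retained-intron share of 33.2% to 39.5% (35.8%) and a median share carrying intron bases of 41.9% to 46.3%. Of 223 alternatives for single genes, 185 moved the value by no more than its spread and 38 by more. For the BCV, that spread is the SD of the values with 1 replicate left out. Leaving out 1 of 3 libraries cannot move a mean TPM or mean share by more than its SD, so those alternatives could not fail. Of 120 alternatives that left out a replicate, 114 stayed within the spread, and the 6 that moved were all BCVs. The percentiles rank means of the same kind, and none of them moved. Of 40 alternatives with the reads-based estimates, 23 stayed within the spread. The share of each gene with more than 1 transcript enters more than 1 time, as itself or as its complement. With 3 libraries, a spread estimate rests on 2 degrees of freedom, and Gadd45g had at most 37 counts in a library.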
